A study of Mus musculus with 24 samples.

Results

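Osteoclast and cell fusion genes were followed in macrophages of 4 mouse tissues, freshly sorted or kept in culture. The group holds 8 genes chosen by name out of the 45706 genes of the count table: Tnfrsf11a, Oscar, Nfatc1, Dcstamp, Ocstamp, Atp6v0d2, Acp5 and Ctsk. RNA sequencing was available for 24 libraries, 3 in each of 8 groups, all from female C57BL/6J mice aged 8 to 12 weeks. Microglia (MG) from brain, Kupffer cells (KC) from liver, peritoneal macrophages (PM) and alveolar macrophages (AM) from lung were sorted by flow cytometry and are the ex vivo groups. Their in vitro counterparts, the macrophage-like cells (LCs), were grown for 14 days from unsorted suspensions of the same organs in flasks coated with polyethylenimine. MG-LCs received M-CSF and IL-34, each at 20 ng/mL, and KC-LCs and PM-LCs received M-CSF alone at 20 ng/mL, all 3 at 3% oxygen and high glucose. AM-LCs received GM-CSF at 20 ng/mL, without glucose and at atmospheric oxygen. KC-LCs and PM-LCs thus shared cytokine, oxygen and glucose, whereas for MG-LCs and AM-LCs the population and the culture conditions cannot be told apart. A flask held the cells of 3 mice for MG-, PM- and AM-LCs and of 1 mouse for KC-LCs. The labels number the libraries within a group without naming animals, and p-values therefore measure the spread between these libraries only.

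Osteoclasts are the multinucleated cells that resorb bone, and they arise from the same myeloid lineage as macrophages when M-CSF and the cytokine RANKL act together. RANKL binds the receptor RANK, encoded by Tnfrsf11a, while immunoreceptors such as OSCAR give a co-stimulus through adaptors with activating motifs. Both inputs converge on the transcription factor NFATc1, which is regarded as the central regulator of the programme. Its known targets include the fusion proteins DC-STAMP and OC-STAMP, the proton pump subunit encoded by Atp6v0d2, tartrate-resistant acid phosphatase encoded by Acp5, and the collagen-degrading protease cathepsin K encoded by Ctsk. Several of these genes are also expressed in macrophages that form no bone-resorbing cells, and fused macrophages occur as giant cells in chronic inflammation.

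The libraries held between 2.96e+07 and 4.71e+07 counted reads, at which 3 counts amount to 0.0659 to 0.112 CPM, the floor below which a level is not read here. CPM are counts-per-million values after TMM normalization, and a gene was called where the adjusted p of edgeR's quasi-likelihood test was under 0.05. General macrophage markers summed to between 13161 and 122949 CPM in every library. Markers of each population's own tissue identity summed to between 18109.7 and 36824 CPM in the sorted libraries and to between 115 and 10986 CPM in the cultured ones. Stromal markers (collagens, decorin, lumican, Pdgfra and mesothelial genes) reached at most 23.9 CPM in sorted cells, but 31829, 7.43 and 1023 CPM in the 3 MG-LC libraries, 22.3, 2202 and 370.0 CPM in PM-LCs and 16.7, 178 and 1715 CPM in AM-LCs. KC-LCs held 0.0235, 1.55 and 29.7 CPM of them. Markers of other cell types also ran higher in some sorted groups than in their cultures. B cell markers measured 571 to 648 CPM in sorted MG, led by Ighm, against 10.2 to 56.6 CPM in MG-LCs. They measured 214 to 443 CPM in sorted KCs against 15.8 to 29.7 CPM in KC-LCs. PM-LC 1 held 312 CPM of them, against 25.7 CPM in PM-LC 2 and 52.0 CPM in PM-LC 3. Sorted MG held 1829 to 1949 CPM of dendritic cell markers against 4.38 to 14.4 CPM in MG-LCs, of which Siglech, also in the MG list, made up all but 24.5 to 25.9 CPM. Sorted AMs held 1218 to 1362 CPM of epithelial markers, led by Krt19, against 88.3 to 216 CPM in AM-LCs. They also held 413 to 534 CPM of T and NK cell markers against 24.5 to 188 CPM, nearly all of it Cd2. Hepatocyte markers measured 469 to 532 CPM in sorted AMs against at most 2.44 CPM in AM-LCs. Fabp1, also in the AM list, made up all but 0.239 to 0.785 CPM of them in sorted AMs. Sorted KCs held 417 to 864 CPM of endothelial markers against at most 66.2 CPM in KC-LCs, and Cdh5 is in both the endothelial and the KC list. They held 114 to 258 CPM of hepatocyte markers against at most 0.327 CPM. KC 1 stood apart from KC 2 and KC 3, with 826 CPM of dendritic cell markers against 159.7 and 162 CPM, 270.4 CPM of T and NK cell markers against 39.4 and 33.9 CPM, and 18109.7 CPM of KC markers against 36824 and 36010.5 CPM. Neutrophil markers divided the libraries otherwise, with 135 CPM in KC 1, 92.0 CPM in KC 2 and 2.26 CPM in KC 3. The part of these cell types in the changes with culture was not tested beyond the fits that left out single libraries. In bulk RNA, fewer expressing cells and less RNA per cell cannot be told apart. The plot of the 8 genes by library shows the levels that the following paragraphs describe.

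**Figure D1:**
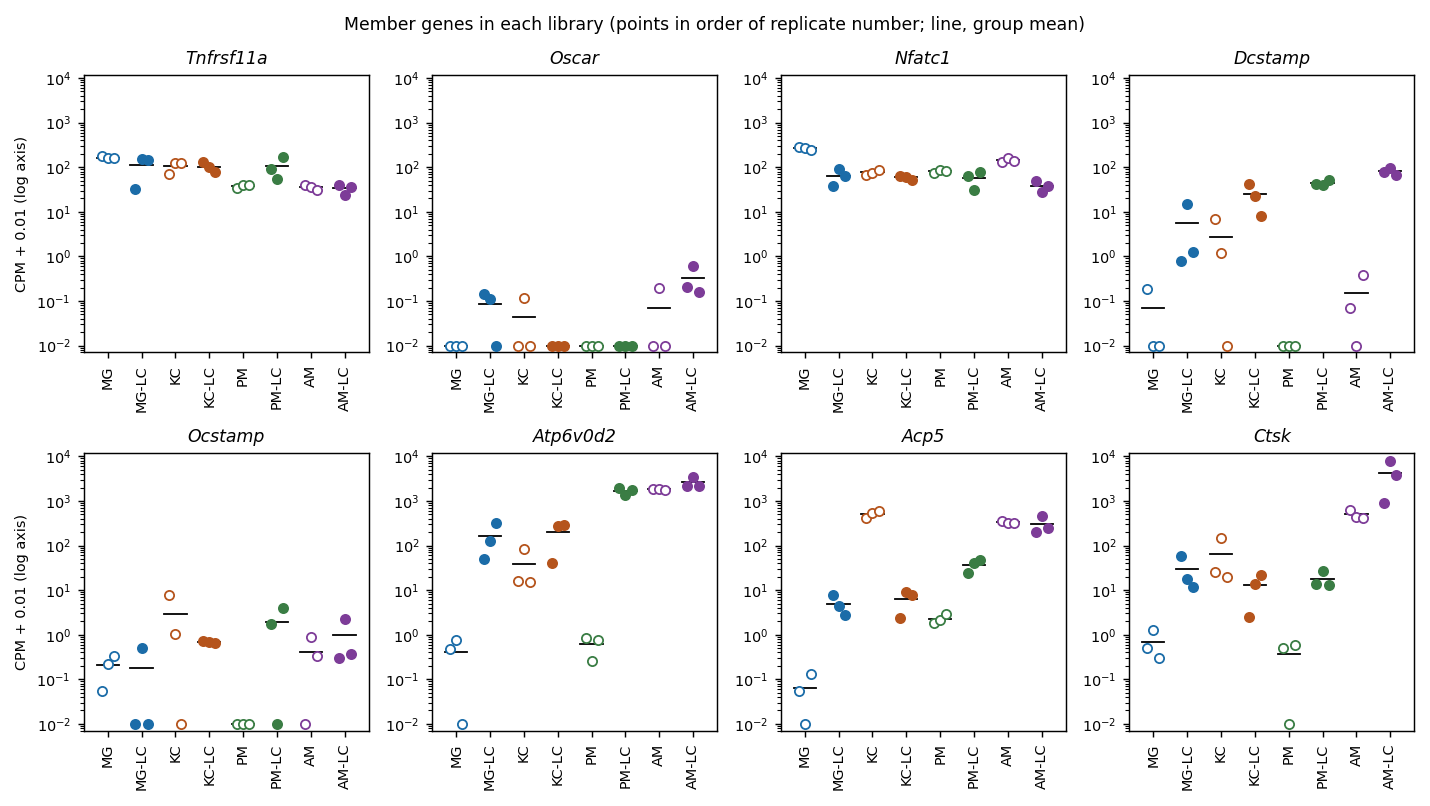
Level of each of the 8 genes in the 24 libraries as CPM + 0.01 on a log axis, with open points for sorted and filled points for cultured libraries and a line at the group mean. Nfatc1 is highest in the 3 sorted MG libraries (245 to 286 CPM), Atp6v0d2 lies at or above 1384 CPM in PM-LCs, AMs and AM-LCs, and Oscar stays under 1 CPM in all libraries.

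RANK, the receptor of the programme, was present in all 24 libraries. Tnfrsf11a (ENSMUSG00000026321, chr1:105780718-105847981, plus strand, GRCm38) measured 175, 158 and 158 CPM in sorted MG, 70.2, 124 and 126 CPM in KCs, 34.02, 40.3 and 39.9 CPM in PMs, and 39.9, 36.2 and 30.2 CPM in AMs. Sorted MG lay above every other sorted library, and PMs and AMs overlapped at the low end. In culture it measured 32.3, 156 and 147 CPM in MG-LCs, 129.6, 101 and 77.0 CPM in KC-LCs, 93.4, 54.0 and 168 CPM in PM-LCs, and 40.6, 23.5 and 36.9 CPM in AM-LCs. PM-LC 3, at 168 CPM, reached the range of sorted MG. The low MG-LC value belongs to replicate 1, the library with the most stromal RNA. Tnfrsf11a rose with culture only in PMs by the test, by 1.48 ± 0.39 (SE) on the log2 scale with an adjusted p of 0.0269. That call was lost without PM 1, PM 2, PM 3 or PM-LC 1, where the adjusted p was 0.102, 0.0957, 0.0885 and 0.0563 in turn, and over all alternatives it ran from 0.00137 to 0.102. In MG, KCs and AMs the log2 differences were -0.53 ± 0.55, -0.05 ± 0.31 and -0.06 ± 0.23, none past the threshold. Whether the change in PMs differed from that in the other 3 populations was a test of its own, given with the others of its kind.

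Oscar, the collagen-binding immunoreceptor, was barely sequenced. Oscar (ENSMUSG00000054594, chr7:3609813-3616157, minus strand) had no read in any sorted MG, sorted PM, KC-LC or PM-LC library. It had 4 reads in KC 2, 7 reads in AM 2, 5 and 4 reads in MG-LC 1 and MG-LC 2, and 6, 16 and 4 reads in the AM-LC libraries. The highest level, in AM-LC 2, was 0.599 CPM, and each AM-LC library lay above every other cultured library, by few reads. The gene did not pass the filter on low counts in any comparison and was not tested. Without that filter it was called higher in AM-LCs than in the other cultures.

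NFATc1 transcript was highest ex vivo and lower after culture in MG and AMs. Nfatc1 (ENSMUSG00000033016, chr18:80606205-80713071, minus strand) measured 286, 265 and 245 CPM in sorted MG and 38.0, 90.04 and 63.4 CPM in MG-LCs. In AMs it measured 128, 159.7 and 138 CPM ex vivo and 49.3, 28.1 and 38.5 CPM in vitro. The sorted and cultured libraries did not overlap in either population. The gene fell by 2.03 on the log2 scale in MG (SE 0.34, adjusted p = 0.00568) and by 1.86 in AMs (SE 0.22, adjusted p = 0.0006). KCs held 66.1, 76.0 and 87.1 CPM against 65.3, 61.7 and 52.4 CPM in KC-LCs, and PMs held 74.2, 85.3 and 82.0 CPM against 64.5, 31.1 and 76.3 CPM in PM-LCs. The KC libraries did not overlap and the PM libraries did, but neither difference, -0.34 ± 0.22 in KCs and -0.48 ± 0.32 in PMs, passed the threshold. In order of mean level, sorted MG stood first and sorted AM next, each apart from its lower neighbour, and the remaining 6 groups, from sorted PMs at 80.5 ± 5.71 CPM (SD, n = 3) down to AM-LCs at 38.6 ± 10.6 CPM, each overlapped the next.

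DC-STAMP, a multipass membrane protein required for the fusion of osteoclast precursors, was low or not read ex vivo and present in all cultured groups. Dcstamp (ENSMUSG00000022303, chr15:39745930-39760938, plus strand) had no read in any of the 3 sorted PM libraries, 8, 0 and 0 reads in MG and 2, 0 and 15 reads in AMs. KCs held 6.81, 1.17 and 0 CPM, the highest of these in KC 1. Among the sorted KC libraries KC 1 held the most markers of dendritic cells, but also of T and NK cells, B cells, neutrophils and hepatocytes. After culture the levels were 78.8, 97.3 and 66.7 CPM in AM-LCs, 42.6, 40.9 and 50.9 CPM in PM-LCs, 42.7, 22.5 and 8.20 CPM in KC-LCs, and 0.792, 14.9 and 1.24 CPM in MG-LCs. PM-LCs and AM-LCs were tight, with SDs of 5.36 and 15.4 CPM around means of 44.8 and 80.9 CPM, while the MG-LC mean of 5.63 CPM rested on replicate 2.

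Dcstamp rose in PMs, AMs and MG. In PMs the culture level was at least 508-fold higher than a floor of 3 counts per sorted library (adjusted p = 8e-05). In AMs the log2 difference was 9.06 ± 0.71 (adjusted p = 0.000154). Without AM 3, which held most of the sorted reads, it was 11.32, and without AM 2 it was 8.47. In MG it was 6.48 ± 1.92 (adjusted p = 0.0344), and leaving out MG 1, MG 2, MG 3 or MG-LC 2 gave 10.75, 5.95, 5.93 and 3.99 with adjusted p of 0.0696, 0.12, 0.118 and 0.0784. The adjusted p for MG ran from 0.00637 to 0.12 over the alternatives. The mean of sorted MG, 0.0586 CPM, lay below the floor, so the size of the MG rise is uncertain. In KCs the 3 cultured libraries lay above the 3 sorted ones, but the log2 difference of 3.19 ± 1.42 missed the threshold (adjusted p = 0.12). Without KC 1 it was 5.38 with an adjusted p of 0.0228, and over the alternatives the adjusted p ran from 0.0228 to 0.29.

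OC-STAMP, the partner of DC-STAMP in fusion, stayed low throughout. Ocstamp (ENSMUSG00000027670, chr2:165393760-165400405, minus strand) reached its highest level, 7.87 CPM, in KC 1, with 1.02 and 0 CPM in the other KC libraries. PM-LCs followed with 1.76, 0 and 3.97 CPM, where sorted PMs had no read in any library, which makes the PM-LC mean at least 21.7-fold higher than the floor without a test, since the gene did not pass the filter there. AM-LCs held 0.287, 2.28 and 0.369 CPM against 0, 0.88 and 0.319 CPM in AMs, and KC-LCs held 0.705, 0.679 and 0.628 CPM. MG libraries held at most 0.331 CPM and MG-LC libraries at most 0.5 CPM. The differences with culture tested in KCs (-2.15 ± 1.60) and AMs (1.28 ± 1.32) did not pass the threshold, and the libraries of the groups overlapped.

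Atp6v0d2 encodes an alternative d subunit of the vacuolar proton pump and is needed for efficient fusion of osteoclast precursors. The gene (ENSMUSG00000028238, chr4:19876841-19922605, minus strand) measured 0.461, 0.755 and 0 CPM in sorted MG, 0.832, 0.248 and 0.737 CPM in PMs, 16.0, 85.2 and 15.0 CPM in KCs, and 1895, 1816 and 1768 CPM in AMs. After culture it measured 48.8, 125 and 321 CPM in MG-LCs, 1924, 1384 and 1741 CPM in PM-LCs, 40.4, 276 and 296 CPM in KC-LCs, and 2115, 3526 and 2170.4 CPM in AM-LCs. PM-LCs overlapped sorted AMs, with PM-LC 2 and PM-LC 3 lower, while sorted PMs lay below 1 CPM.

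The gain of Atp6v0d2 with culture amounted to 11.46 ± 0.54 on the log2 scale in PMs (adjusted p = 3.03e-05) and 8.69 ± 1.40 in MG (adjusted p = 0.00533). Leaving out MG-LC 3, MG 2 or MG 3 moved the MG value to 7.78, 9.45 and 8.09. KCs gave 2.42 ± 0.90 (adjusted p = 0.074), which passed the threshold without KC 2 (3.73, adjusted p = 0.0286) or KC-LC 1 (2.93, adjusted p = 0.0425) and ran from 0.00958 to 0.182 over the alternatives. In AMs the cultured libraries all lay above the sorted ones, but the value was 0.52 ± 0.21 (adjusted p = 0.0754). It passed without AM-LC 1 (0.66, adjusted p = 0.0447), and over the alternatives the adjusted p ran from 0.022 to 0.672. The log2 differences of Atp6v0d1, the ubiquitous d subunit, were 1.21 ± 0.23 in MG, 1.21 ± 0.21 in KCs and 0.57 ± 0.15 in PMs, each past the threshold, and 0.25 ± 0.10 in AMs, which was not. The difference between the changes of the d subunit genes was not tested. Per kilobase of the longest annotated transcript, Atp6v0d2 stood at 663 CPM in PM-LCs against 118 CPM for Atp6v0d1, and at 0.239 against 80.1 CPM in sorted PMs.

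**Figure D2:**
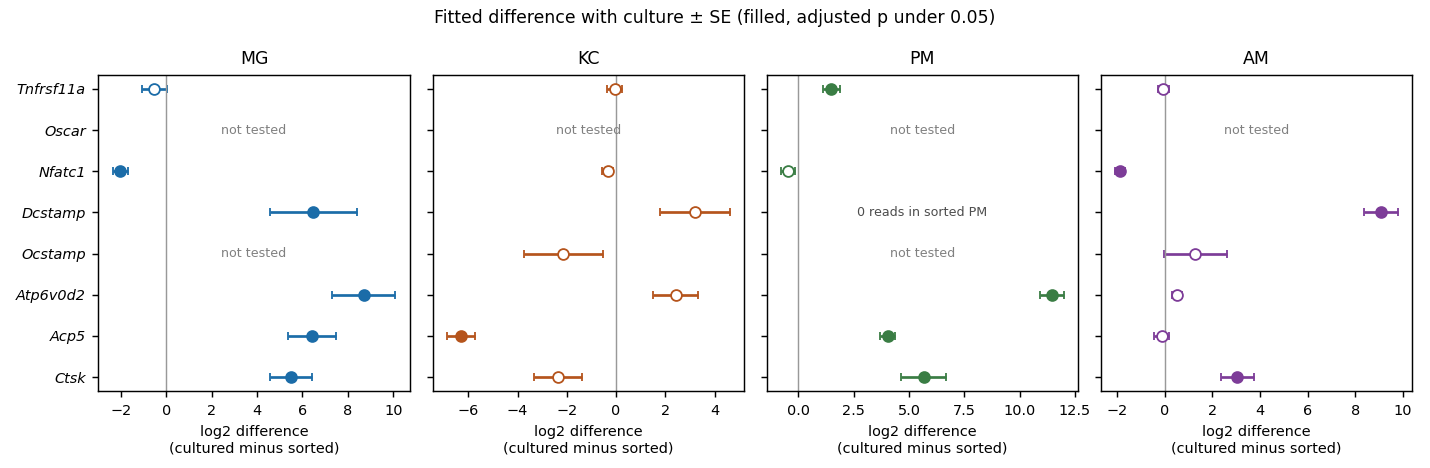
Fitted log2 difference, cultured minus sorted, of each gene in each population with its SE, filled where the adjusted p is under 0.05. Dcstamp in PMs is written as words because the sorted libraries held no read, and Acp5 stands to the left of 0 in KCs (-6.31) but to the right in MG (6.43) and PMs (4.04).

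Tartrate-resistant acid phosphatase, the classical histochemical marker of osteoclasts, moved in opposite directions in different populations. Acp5 (ENSMUSG00000001348, chr9:22126727-22135711, minus strand) measured 408, 526 and 602 CPM in sorted KCs and 2.42, 8.97 and 7.82 CPM in KC-LCs, and it fell by 6.31 on the log2 scale (SE 0.57, adjusted p = 0.000507). In PMs it rose from 1.83, 2.18 and 2.87 CPM to 24.8, 40.4 and 46.9 CPM (4.04 ± 0.34, adjusted p = 0.000263). In MG it rose from 0.0439, 0 and 0.118 CPM to 7.81, 4.38 and 2.71 CPM (6.43 ± 1.06, adjusted p = 0.00568). Sorted MG held 7 reads in all, with a mean of 0.0541 CPM below the floor, so the size of that rise is uncertain. The MG call was lost without MG 1 (6.30, adjusted p = 0.0504, with a range of 2.52e-11 to 0.0504 over the alternatives), and without MG 3 the value was 7.59. AMs held 358, 324 and 327 CPM and AM-LCs 196, 469 and 249.8 CPM, a difference of -0.13 ± 0.30 that did not pass the threshold. Without AM-LC 2 that difference was -0.57 with an adjusted p of 0.0208, against 0.0208 to 0.997 over the alternatives. Of the exonic bases of Acp5, 6.75% are shared with the neighbouring gene 6530413G14Rik, and reads from them cannot be assigned with certainty. No other of the 8 genes shares exonic bases with another gene.

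Cathepsin K transcript was highest in AM-LCs and uneven between the libraries there. Ctsk (ENSMUSG00000028111, chr3:95499256-95509362, plus strand) measured 641, 448 and 424 CPM in AMs and 887, 7774 and 3785 CPM in AM-LCs, a rise of 3.06 ± 0.70 on the log2 scale (adjusted p = 0.00997) that became 2.24 without AM-LC 2. In MG it rose from 0.483, 1.24 and 0.284 CPM to 59.2, 17.99 and 11.6 CPM (5.49 ± 0.93, adjusted p = 0.00605), and in PMs from 0.499, 0 and 0.573 CPM to 13.6, 27.0 and 13.3 CPM (5.65 ± 1.03, adjusted p = 0.00653). Cultured and sorted libraries did not overlap in these 3 populations. KCs held 25.3, 151 and 19.2 CPM, the high value in KC 2, and KC-LCs held 2.47, 13.6 and 22.1 CPM. The KC difference of -2.34 ± 0.98 did not pass the threshold (adjusted p = 0.10), and without KC 2 it was -0.80.

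Fibroblasts and other stromal cells also express Ctsk, and the stromal markers given above were therefore set beside it, as the plot of Ctsk and Dcstamp against the summed stromal markers shows. The highest Ctsk values of MG-LCs and PM-LCs, 59.2 and 27.0 CPM, belong to MG-LC 1 and PM-LC 2, the libraries with the most stromal markers in their groups. Without MG-LC 1 the MG difference was 4.51 (adjusted p = 0.00344), and without PM-LC 2 the PM difference was 5.21 (adjusted p = 0.00632). The adjusted p over all alternatives ran up to 0.0436 in MG and to 0.0391 in PMs. Leaving out MG 2 moved the MG value to 6.28 and leaving out PM 2 the PM value to 5.03. Among AM-LCs the library with the most stromal markers, replicate 3, held 3785 CPM, and replicate 2 held 7774 CPM with 178 CPM of stromal markers. Dcstamp ran the other way in MG-LCs, where replicate 2, with 7.43 CPM of stromal markers, held 14.9 CPM. Over the MG-LCs the Dcstamp and Ctsk values thus ran in different orders, and the part of stromal RNA in the Ctsk levels was not tested beyond the fits without those libraries.

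**Figure D3:**
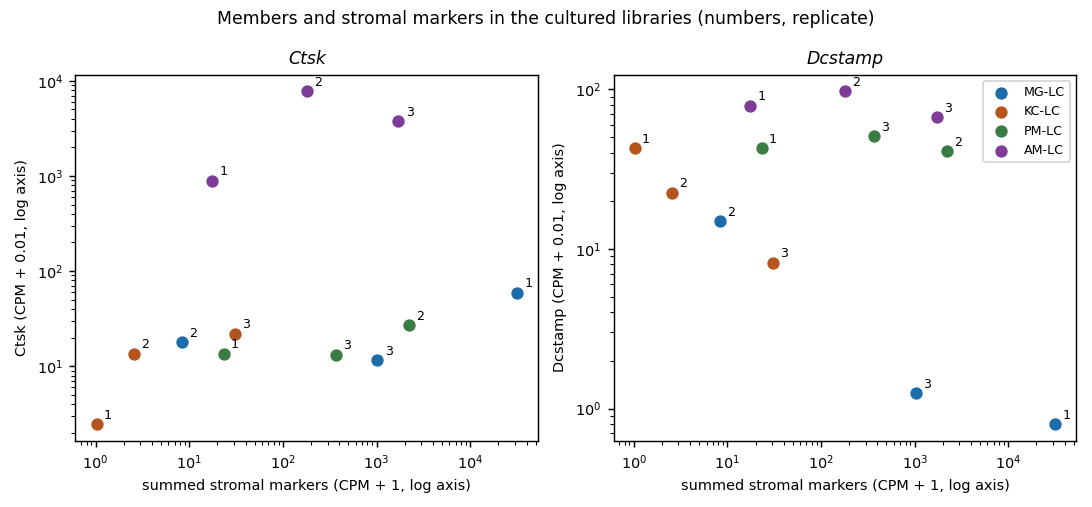
Level of Ctsk (left, CPM + 0.01) and Dcstamp (right, CPM + 0.01) in the 12 cultured libraries against the sum of the stromal markers (CPM + 1), all axes logarithmic and points numbered by replicate. MG-LC 1 lies far to the right at 31829 CPM of stromal markers with 59.2 CPM of Ctsk, while AM-LC 2 has the highest Ctsk, 7774 CPM, at 178 CPM of stromal markers.

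Acp5 and Ctsk rose together in MG and PMs, and the sequence before their start sites is shown for that reason. RefSeq promoter windows were examined for 4 of the 8 genes (Tnfrsf11a, Oscar, Acp5 and Ctsk). The promoters of the remaining genes, Nfatc1 among them, were not examined, which does not mean that RefSeq lacks windows for them. The first sequence is the 250 bases before the Ctsk start of RefSeq (chr3:95498960-95499209, GRCm38.p6, plus strand), which lies upstream of the start that the GENCODE annotation gives. The second is 240 of the 250 bases before an Acp5 start that 2 GENCODE transcripts share (chr9:22130609-22130848, minus strand), without the 10 bases next to that start, which an exon overlaps. Both run 5′ to 3′. Capitals mark GAGGAA, a form of the PU.1 site, or CACATG, an E-box form bound by MITF, on either strand.
Ctsk: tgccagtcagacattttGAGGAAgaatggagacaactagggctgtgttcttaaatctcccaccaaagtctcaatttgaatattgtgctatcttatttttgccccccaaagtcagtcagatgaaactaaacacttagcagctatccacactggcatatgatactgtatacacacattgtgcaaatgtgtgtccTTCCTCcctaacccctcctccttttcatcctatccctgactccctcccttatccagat
Acp5: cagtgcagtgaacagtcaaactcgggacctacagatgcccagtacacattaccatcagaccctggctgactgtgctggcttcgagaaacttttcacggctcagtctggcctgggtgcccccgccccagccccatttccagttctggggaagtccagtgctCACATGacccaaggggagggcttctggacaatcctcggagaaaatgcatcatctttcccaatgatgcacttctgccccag
The Ctsk window held GAGGAA at 2 places and this Acp5 window held CACATG at 1 place, and neither held the AP-1 form TGANTCA or the E-box CACGTG. RefSeq has windows at 2 other Acp5 starts, and neither held CACATG or GAGGAA. The NFAT core GGAAA occurred at 2 places in the Acp5 window shown and at 1 in each of the other Acp5 windows. It was absent from the Ctsk window. The window of Oscar, a gene barely sequenced here, held GAGGAA and CACATG at 1 place each and GGAAA at 3. The Tnfrsf11a window held none of these forms. Among all 32851 promoter windows of the same 250 bases, 23.3% held GAGGAA, 12.3% held CACATG, 6.75% held TGANTCA, 6.02% held CACGTG and 55.6% held GGAAA on either strand. GGAAA and GAGGAA may overlap each other in sequence, and a match is a description of letters only.

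In MG 4 of the 6 genes tested were higher in culture and 1 was lower, where 25.2% of all genes tested were called higher and 21.2% lower. In PMs 5 of 6 were higher and none lower, against 16.8% and 12.1% of all genes. In AMs 2 of 7 were higher and 1 was lower, against 25.9% and 22.9%, and the share called higher was thus close to that of all genes. In KCs none of the 7 was higher and 1 was lower, against 14.4% and 19.4%. The median log2 difference of the tested genes was 5.96 in MG, 4.85 in PMs, 0.52 in AMs and -0.34 in KCs, next to medians between -0.01 and 0.04 over all genes tested in the 4 populations. The PM median was the same with Dcstamp at its lower bound. Oscar was not tested in any population, and Ocstamp was not tested in MG and PMs. Dcstamp and Acp5 in MG and Dcstamp in PMs had fewer than 10 counts in every sorted library. They passed the filter on low counts through the cultured libraries alone, so that only a call of higher was possible for them. The counts and medians of MG and PMs draw on these genes. The same filter was applied to all genes. The genes that rose were the fusion and resorption genes in each case apart from Tnfrsf11a in PMs, while Nfatc1 was called in the lower direction or not called.

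Per kilobase of transcript, Nfatc1 and Tnfrsf11a made up 62.4% and 36.7% of the summed level of the 8 genes in sorted MG, and 63.5% and 28.7% in sorted PMs. Acp5 made up 78.4% in sorted KCs, and Atp6v0d2, Ctsk and Acp5 made up 54.4%, 25.2% and 17.6% in sorted AMs. After culture Atp6v0d2 held the largest share in MG-LCs (51.4%), KC-LCs (58.0%) and PM-LCs (87.6%), and Ctsk did in AM-LCs (68.0%). These shares come from group means, and in each of the sorted groups and in PM-LCs the same gene led in all 3 libraries. In the other cultured groups the first library had another leading gene, Ctsk in MG-LC 1 (49.8%), Tnfrsf11a in KC-LC 1 (32.1%) and Atp6v0d2 in AM-LC 1 (51.6%). Dcstamp made up 8.84% in KC-LCs, from 26.7%, 6.69% and 2.45% in the single libraries, and 4.58% without KC-LC 1. A share can fall without a fall in level, and the difference of Nfatc1 with culture in PMs was not called. The plot of the group shares shows the sorted and cultured group of each population side by side.

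**Figure D4:**
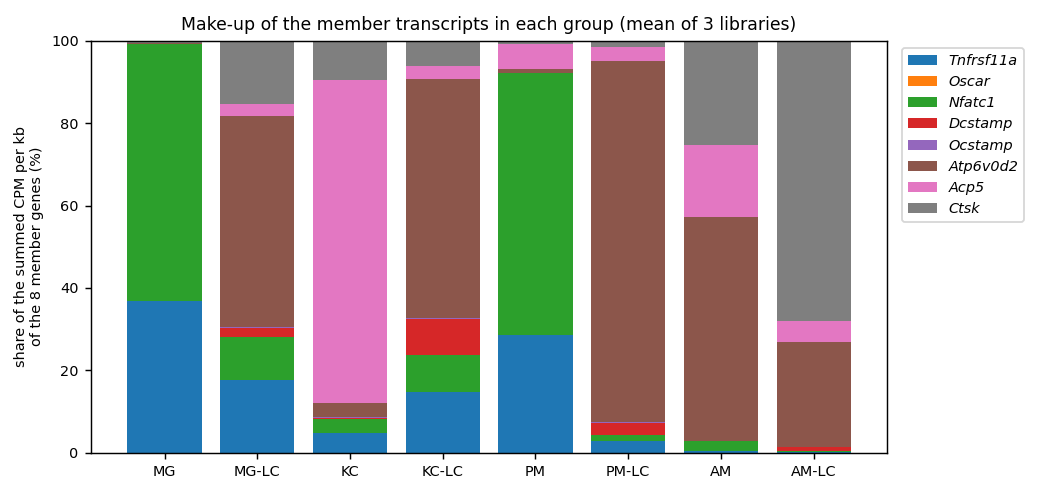
Share of each gene in the summed CPM per kilobase of the 8 genes (vertical axis, %), from group means of 3 libraries. The largest share is that of Nfatc1 in MG (62.4%) and PMs (63.5%), of Atp6v0d2 in MG-LCs (51.4%) and PM-LCs (87.6%), and of Ctsk in AM-LCs (68.0%). A share can fall without a fall in level.

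Among the sorted populations, each compared with the mean of the other 3, the 8 genes divided by tissue. In sorted MG Tnfrsf11a (1.61 ± 0.15) and Nfatc1 (1.44 ± 0.10) were higher, and Atp6v0d2 (-6.48 ± 0.92), Acp5 (-10.31 ± 0.42) and Ctsk (-5.14 ± 0.92) were lower. These were 2 and 3 of the 7 genes tested, against 26.2% and 25.2% of all genes called higher and lower. Sorted MG held 7 reads of Acp5, below the floor on average, and the size of each Acp5 difference among sorted populations draws on them. In sorted AMs Atp6v0d2 (9.77 ± 0.63), Ctsk (7.68 ± 0.64) and Acp5 (6.37 ± 0.22) were higher, each with an adjusted p at or below 1.77e-06, and Tnfrsf11a (-1.29 ± 0.18) was lower. Nfatc1 was also called higher in AMs (0.28 ± 0.11, adjusted p = 0.0494), a call that held in the fit without KC 3 and in none of the other 11 fits without 1 library, where the adjusted p was between 0.0583 and 0.367, against 0.0254 to 0.367 over all alternatives. Of all genes, 24.7% were called higher and 21.9% lower in AMs. Sorted PMs were lower for Tnfrsf11a, Nfatc1, Atp6v0d2, Acp5 and Ctsk, 5 of 7 genes against 15.1% of all genes, and higher for none, against 20.8%.

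Sorted KCs were higher for 6 of 7 genes and lower for Nfatc1 (-0.92 ± 0.12), against 24.1% and 12.4% of all genes. Acp5 stood out among them at 512 ± 97.8 CPM (SD, n = 3) with a difference of 7.16 ± 0.22, and no KC library overlapped another sorted group. Tnfrsf11a was higher by 0.82 ± 0.16. The calls for Dcstamp and Ocstamp were lost without KC 1 (adjusted p = 0.0692 and 0.143) and that for Atp6v0d2 without KC 2 (0.99 in place of 2.35, adjusted p = 0.136). Over the alternatives these 3 adjusted p reached 0.0762, 0.204 and 0.136. Ctsk was 3.73 ± 0.60 higher, and 2.14 without KC 2. The call for Ctsk in MG was lost with limma-voom (-4.77, adjusted p = 0.0516). The fitted sizes for Dcstamp and Ocstamp are not given, because sorted PMs had no read of either gene. Leaving out MG 2 or MG 3 moved the MG values to -7.17 and -5.83 for Atp6v0d2, MG 2 that for Ctsk to -5.84 and MG 3 that for Acp5 to -11.37. Leaving out PM 2 or PM 3 moved the PM value of Ctsk from -6.27 to -5.66 and -6.86.

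Among the cultured populations, each compared with the mean of the other 3, most calls were in AM-LCs. Ctsk was 7.78 ± 0.74 higher in AM-LCs than in the mean of the other cultures (adjusted p = 0.000209), Acp5 4.86 ± 0.40 (adjusted p = 9.96e-05) and Atp6v0d2 2.78 ± 0.53 (adjusted p = 0.00791). These were 3 of 7 genes, against 8.38% of all genes called higher, and none was lower, against 4.71%. The Atp6v0d2 call was lost without AM-LC 2 (2.47, adjusted p = 0.0545, with a range of 1.52e-05 to 0.0545), and the Ctsk value was then 6.93. Dcstamp lay higher in every AM-LC library than in any other cultured library (2.17 ± 0.67, adjusted p = 0.057) without passing the threshold. MG-LCs were lower for Acp5 (-3.07 ± 0.53, adjusted p = 0.0461), 1 of 7 genes against 0.223% of all genes, and higher for none against 0.338%. That call held without MG-LC 1 or MG-LC 2 and was lost in each of the 10 other fits without 1 library, with adjusted p between 0.0516 and 0.121, and without the 3 cultured libraries richest in stromal markers (MG-LC 1, PM-LC 2 and AM-LC 3) the value was -3.61 (adjusted p = 0.07). Over all alternatives the adjusted p ran from 1.01e-08 to 0.121. KC-LCs and PM-LCs had no call among the 7 genes, where 0.0135% and 0.405% of all genes were called higher and 0.0945% and 0.122% lower. At an unadjusted p under 0.05 KC-LCs had Atp6v0d2, Acp5 and Ctsk, and PM-LCs Atp6v0d2 and Ctsk. The share of all genes at that threshold was not counted. DESeq2 called the same genes, 3 in KC-LCs and 2 in PM-LCs. Over all genes it called 1407 in KC-LCs and 910 in PM-LCs, where edgeR called 16 and 78. With the same 3 stromal libraries left out, Ctsk, Acp5 and Atp6v0d2 in AM-LCs were 8.34, 5.18 and 2.71, all past the threshold.

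The change with culture itself was also compared between populations. In a model of all 24 libraries, the change in each population was set against the mean change of the other 3. MG differed for 3 of 7 genes (Nfatc1, Atp6v0d2 and Acp5) against 19.8% of all genes. KCs differed for 5 (Nfatc1, Dcstamp, Atp6v0d2, Acp5 and Ctsk) against 15.4%, and PMs for 3 (Tnfrsf11a, Atp6v0d2 and Acp5) against 13.2%. AMs differed for 1 of 7 (Atp6v0d2), a share close to the 17.1% of all genes. The Acp5 change in KCs was the largest of these, -9.70 ± 0.69 (adjusted p = 2.27e-07). These 4 contrasts share all libraries and are not independent of each other. Oscar was not tested and Ocstamp had no call.

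The other genes of the pathway are shown in the map of their differences with culture. Of 17 genes around the receptor, RANKL itself (Tnfsf11) and its decoy receptor osteoprotegerin (Tnfrsf11b) had their highest levels in MG-LC 1, the library with the most stromal markers. Tnfsf11 measured 203, 0 and 0.664 CPM in MG-LCs and at most 1.99 CPM elsewhere, and Tnfrsf11b 13.8, 0 and 1.44 CPM in MG-LCs and at most 1.55 CPM elsewhere. The adaptors Tyrobp and Fcer1g and the signal transducer Traf6 were present in all groups, and Tyrobp rose in KCs (1.00 ± 0.31) and AMs (1.04 ± 0.19). Trem2, the receptor that signals through Tyrobp, rose by 5.42 ± 0.36 in KCs, 4.86 ± 0.25 in PMs and 4.22 ± 0.16 in AMs, and differed by 0.06 ± 0.54 in MG, where it was already at 1135 to 1174 CPM. Of the 15 genes tested in this list, none was higher and 2 were lower in MG, against 25.2% and 21.2% of all genes, and 3 were higher and 4 lower in KCs, against 14.4% and 19.4%. In PMs 3 were higher and 3 lower, against 16.8% and 12.1%, and in AMs 3 were higher and 6 lower, against 25.9% and 22.9%. The medians were -0.09, 0.39, -0.33 and -0.33 in the same order. Nfkb1, the NF-kappaB subunit, was lower in all 4 populations, between -2.12 in MG and -1.04 in KCs.

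Of 7 further transcription factors of the programme, 5 rose and none fell in PMs, against 16.8% and 12.1% of all genes, and none rose and 4 fell in AMs, against 25.9% and 22.9%. In KCs 1 rose and 1 fell, against 14.4% and 19.4%, and none was called in MG, against 25.2% and 21.2%. The medians were 1.23 in PMs, -0.68 in AMs, -0.51 in KCs and 0.35 in MG. Fos, the AP-1 subunit needed for osteoclast formation, rose in PMs (6.30 ± 0.57) and KCs (3.30 ± 0.67) and fell by 1.96 in AMs (SE 0.50). Prdm1, a repressor of genes that restrain the programme, measured 0.0333, 0 and 1.31 CPM in PMs and 40.1, 13.7 and 115 CPM in PM-LCs (adjusted p = 0.0129), and it fell by 2.32 in AMs. Mitf, a partner of PU.1 at osteoclast genes, rose in PMs (1.92 ± 0.42) and fell by 0.68 in AMs. Irf8 and Bcl6, known to restrain osteoclast formation, rose in PMs (1.13 ± 0.17 and 1.23 ± 0.35). Jdp2, an AP-1 family member, was the gene that fell in KCs, by 2.56 (SE 0.39). Spi1, which encodes PU.1, fell by 1.02 in AMs.

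Of 12 other fusion-related genes, 5 rose and 2 fell in MG, against 25.2% and 21.2% of all genes, and 3 rose and 4 fell in KCs, against 14.4% and 19.4%. In PMs 6 rose and 1 fell, against 16.8% and 12.1%, and in AMs 3 rose and 6 fell, against 25.9% and 22.9%, so that the count that rose in AMs was close to the share over all genes. The medians were 0.15, -0.65, 0.80 and -0.46 in the same order. The metalloprotease Adam8 and the scavenger receptor Cd36 rose in all 4 populations. The tetraspanin Cd9 rose in KCs (4.27 ± 0.53) and PMs (0.87 ± 0.20), and Cd81 fell by 1.79 in MG, 1.25 in KCs and 0.49 in AMs. Cd47 rose in MG (0.62 ± 0.17) and fell by 1.26 in KCs and 1.70 in AMs, and Sirpa, which encodes its binding partner, rose in PMs (2.79 ± 0.26) and fell by 0.95 in AMs.

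Of 13 genes of acid secretion, attachment and matrix degradation, 7 of 12 tested rose and none fell in PMs, against 16.8% and 12.1% of all genes, and 7 of 11 rose and 1 fell in AMs, against 25.9% and 22.9%, with medians of 1.41 and 1.20. In KCs 3 of 12 rose and 4 fell, against 14.4% and 19.4%, with a median of 0.16. In MG 2 of 12 rose, a share below the 25.2% of all genes, and none fell, against 21.2%, with a median of 0.73. Tcirg1, the a3 subunit of the proton pump, rose in PMs (2.37 ± 0.22) and AMs (1.20 ± 0.18). The chloride transporter Clcn7 rose in PMs (2.01 ± 0.26), KCs (1.21 ± 0.35) and AMs (1.19 ± 0.12), and its partner Ostm1 in PMs (1.69 ± 0.18) and AMs (1.35 ± 0.14). The integrin gene Itgb3 had no read in sorted AMs and 15.9, 22.9 and 35.9 CPM in AM-LCs, at least 309.7-fold above the floor of 3 counts per library, and it also rose in KCs (7.48 ± 1.31). Carbonic anhydrase Car2 rose in AMs (4.56 ± 1.05) and was lower in KC-LCs than in KCs, where 5 reads were counted in 1 of the 3 libraries against 6.24, 3.42 and 0.764 CPM in KCs. Mmp9 fell by 8.56 in KCs and measured 264, 0.801 and 3.78 CPM in MG-LCs, the high value in the library with the most stromal markers, against no read in sorted MG. The calcitonin receptor gene Calcr, a marker of mature osteoclasts, had no more than 1 read in any group.

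**Figure D5:**
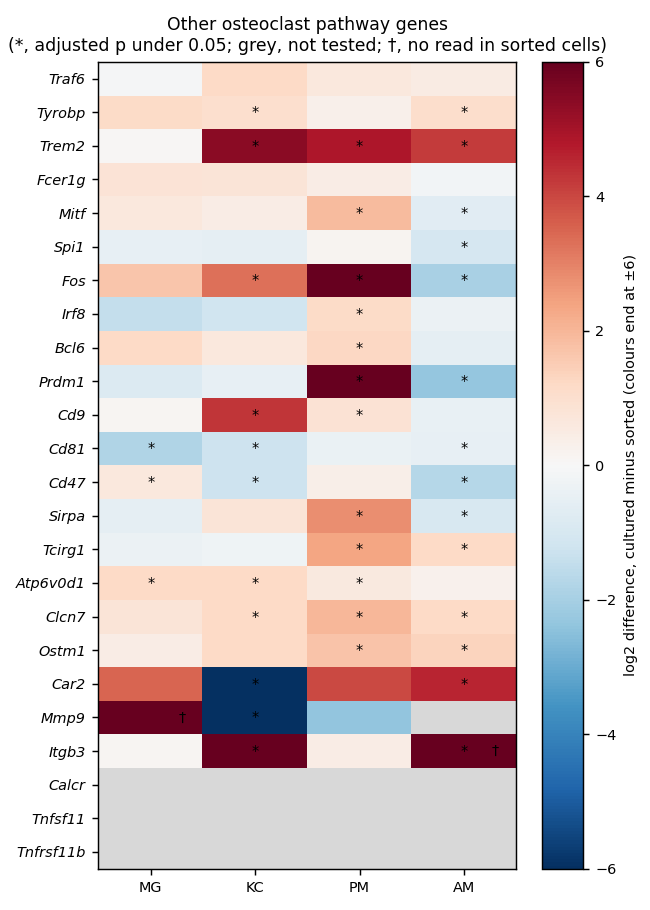
Log2 difference, cultured minus sorted, of 24 named genes of the pathway in the 4 populations, with red for higher and blue for lower in culture and colours ending at 6 on either side and grey for not tested. Trem2 is red in KCs, PMs and AMs but not in MG (0.06), Fos is red in PMs (6.30) and blue in AMs, and the fitted sizes for Itgb3 in AMs and Mmp9 in MG depend on the prior count because sorted cells had no read.

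Across the 24 libraries the 8 genes did not follow one pattern. The correlations below are of log2 CPM and describe libraries that share groups and normalization. Atp6v0d2, Ctsk and Acp5 ran together (Pearson's r of 0.84 for Atp6v0d2 and Ctsk, 0.80 for Acp5 and Ctsk and 0.72 for Atp6v0d2 and Acp5). Nfatc1 ran against Dcstamp (r = -0.69) and Atp6v0d2 (r = -0.54), and Tnfrsf11a was little related to Dcstamp (r = 0.02). The genes most like each of the 8 over the same libraries, among 17408 genes that passed the filter, were Sfmbt1 (r = 0.89), Pdgfb (0.88) and Dot1l (0.88) for Tnfrsf11a, Sppl3 (0.97), Scamp2 (0.95) and Mast3 (0.93) for Nfatc1, and Tmem251 (0.95), Dach1 (0.94) and Pgm5 (0.94) for Dcstamp. For Atp6v0d2 they were Pld3 (0.95), Cd200 (0.94) and Stra6l (0.94), for Acp5 Tfec (0.94), Itgal (0.93) and Il1rn (0.92), and for Ctsk Tmem151a (0.94), Cd300lf (0.91) and Kazn (0.89). Ocstamp, low in all libraries, had no gene above 0.72, the value of Gm11973, followed by Wbp4 (0.72) and Slc4a5 (0.68).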

How the data were processed

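The authors prepared libraries from sorted and cultured macrophages with SMARTer and Nextera XT kits, which do not mark strand, sequenced single reads, trimmed adapters with Trimmomatic, and mapped to the mouse genome mm10 and counted per gene with STAR. The deposited table holds whole-number counts for each gene and library that the authors had not normalized. The submitters' processing notes name a human build, whereas the table holds mouse gene identifiers. The strand setting of the counting is not given in the sources used here. Groups came from the sample titles. The 8 genes and all lists were chosen with earlier results of these data known. Symbols, coordinates and longest transcripts came from the GENCODE annotation of GRCm38, and promoter windows from RefSeq.

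Counts were tested in R 4.3.3 with edgeR 4.0.16 (TMM, filterByExpr with a minimum count of 10, quasi-likelihood F-test, two-sided), with Benjamini-Hochberg adjustment across every gene that passed the filter. The SE is the log2 difference divided by the square root of F. Each population was compared sorted against cultured in 6 libraries, each sorted or cultured population with the mean of the other 3 in 12 libraries, and the change with culture between populations in 24 libraries. Levels were CPM over all 24 libraries, with log2 CPM at a prior count of 2. Alternatives were limma 3.58.1 (voom), DESeq2 1.42.0, RLE size factors, no filter, at least 1 CPM in 3 libraries, a further threshold of 1.5 on the absolute log2 difference, leaving out each library, a block for the replicate number and, for sorted against cultured, 1 model of 24 libraries. Leaving out together the 3 cultured libraries with most stromal markers was added after seeing the data. The procedure was tested on simulated data. Named genes were the 8 genes, genes of the pathway listed by name, and the 3 genes most correlated with each of the 8. A gene first placed among the transcription factors was left out of that list and its counts and is not reported here. Adam8, Cd36, Nfkb1 and Jdp2 were named after their values were seen. The replicate libraries of a group differed by more than sampling noise. The floor of 3 counts covers counting error only.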

Additional observations from a re-analysis of the deposited data

Results flagged for a closer look

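The change with culture differed between populations, by a test of the difference itself in the model of all 24 libraries, in 12 cases. Each of these contrasts called between 13.2% and 19.8% of all genes. All values are log2 differences between the change in 1 population and the mean change of the other 3, with their SE. For Acp5 the change differed by 7.15 ± 0.73 in MG, by 4.05 ± 0.63 in PMs and by -9.70 ± 0.69 in KCs, with adjusted p of 7.95e-07, 0.000218 and 2.27e-07, and the 3 calls held in every fit that left out 1 library. Without MG 3 the MG value was 8.26. All 3 sizes draw on sorted MG, which held 7 reads of Acp5.

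For Atp6v0d2 it differed by 7.59 ± 1.17 in PMs, -6.99 ± 1.12 in AMs, -4.44 ± 1.03 in KCs and 3.85 ± 1.07 in MG, with adjusted p of 0.000199, 0.0002, 0.00648 and 0.0141. The MG value was 4.61 without MG 2, 3.26 without MG 3 and 2.96 without MG-LC 3, where the call was lost (adjusted p = 0.0547, against 0.000544 to 0.182 over the alternatives), and the KC value was -3.11 without KC 2. For Ctsk it differed by -7.05 ± 1.26 in KCs (adjusted p = 0.000893), and by -5.48 without KC 2 and -7.69 without KC-LC 3.

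For Dcstamp the KC value was -6.49 ± 1.85 (adjusted p = 0.0249), but its size rests in part on sorted PMs, which had no read of the gene. The value was -4.32 without KC 1, -6.43 without KC-LC 2 and -6.06 without KC-LC 3, each without a call (adjusted p = 0.129, 0.0719 and 0.0709, against 0.00655 to 0.157 over the alternatives). It was -7.90 without MG 1, -5.65 without MG-LC 2, -7.16 without KC-LC 1 and -7.24 without AM 3.

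For Nfatc1 the change differed by -1.19 ± 0.34 in MG and by 1.17 ± 0.34 in KCs (adjusted p = 0.0163 and 0.0249). The MG call was lost without MG 1 or MG-LC 1 (adjusted p = 0.051 and 0.0625, against 0.00229 to 0.0625 over the alternatives), and the KC call without KC 1, KC 2, KC-LC 1 or KC-LC 2 (adjusted p = 0.0682, 0.0523, 0.0735 and 0.0629, against 0.00845 to 0.0735). For Tnfrsf11a it differed by 1.69 ± 0.51 in PMs (adjusted p = 0.0308), a call lost without PM 1, PM 2, PM 3, PM-LC 1 or PM-LC 3 (adjusted p = 0.0953, 0.0719, 0.0742, 0.0531 and 0.156, against 0.000921 to 0.156 over the alternatives).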

How the results depend on the processing

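No called difference of the 8 genes changed direction under an alternative. In the sorted against cultured comparisons, 5 of the 6 genes tested were called in MG and 5 of 6 in PMs, 3 of 7 in AMs and 1 of 7 in KCs. KCs gave 2 with limma-voom (Dcstamp added), 3 with DESeq2 (Atp6v0d2 and Ctsk added), 2 with all 24 libraries in 1 model (Atp6v0d2 added) and 3 with the replicate number as a block (Dcstamp and Atp6v0d2 added). Leaving out 1 library gave 3 to 5 in MG (3 without MG 1), 4 to 6 in PMs, 3 to 4 in AMs and 1 to 2 in KCs (2 without KC 1, KC 2 or KC-LC 1). Among sorted populations 7 were called in KCs and 5 each in MG, PMs and AMs, with 4 in KCs under limma-voom (Dcstamp, Ocstamp and Atp6v0d2 lost) and 3 in PMs and 3 in AMs with the added threshold of 1.5 on the log2 difference (Tnfrsf11a and Nfatc1 lost). Leaving out 1 library gave 5 to 7 in KCs, 4 to 5 in AMs, 5 to 6 in PMs and 5 in MG in each fit.

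Among cultured populations 1 gene was called in MG-LCs, 0 in KC-LCs, 0 in PM-LCs and 3 in AM-LCs. DESeq2 called 3, 3, 2 and 5, no filter gave 5 in AM-LCs (Oscar and Tnfrsf11a added), and 0 were called in MG-LCs without the 3 libraries richest in stromal markers. Leaving out 1 library gave 0 to 2 in MG-LCs (2 without MG-LC 2), 0 in KC-LCs and PM-LCs, and 2 to 5 in AM-LCs (5 without MG-LC 1). For the change with culture between populations 5 were called in KCs, 3 each in MG and PMs, and 1 in AMs. DESeq2 called 7 in PMs and 2 in AMs, and without the 3 stromal libraries 5 were called in PMs and 2 in AMs. For this contrast in PMs DESeq2 called 3463 of all genes, where edgeR called 2304. Leaving out 1 library gave 3 to 5 in KCs (3 without KC 1 or KC-LC 2), 2 to 4 in MG, 2 to 6 in PMs (6 without MG-LC 2, 5 without KC 3 or PM-LC 2) and 1 to 2 in AMs (2 without MG 3, MG-LC 1, MG-LC 3, KC-LC 1, PM-LC 2, AM-LC 1 or AM-LC 2). Over all genes the counts were least stable among cultured populations, where 83, 16, 78 and 1939 genes were called in MG-, KC-, PM- and AM-LCs, and 1516, 1407, 910 and 3125 by DESeq2. The cause was not tested.

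The labels give the groups the same replicate numbers. The deviations of same-numbered sorted and cultured libraries correlated between -0.104 and 0.0562, and not every library correlated best with its own number. With 3 libraries per group these correlations cannot decide whether the numbers pair the libraries. Pairing between tissues was not tested. Beside the KC counts above, the block left 0 genes called in MG-LCs, and ended the calls of Dcstamp in MG (6.13, adjusted p = 0.0811) and Tnfrsf11a in PMs (1.34, adjusted p = 0.0512), and those of Dcstamp and Ocstamp in sorted KCs and of Nfatc1 in sorted AMs (adjusted p = 0.0557, 0.131 and 0.0678). RLE in place of TMM moved no mean level by more than the SD of its group. Oscar, Ocstamp and Dcstamp had no more than 3 counts in 17, 9 and 8 of the 24 libraries. The part of sequencing depth in these low counts was not tested.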
